A study of Mus musculus with 5 samples.

Results

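The Zfp genes encode zinc finger proteins, and 143 of their messenger RNAs (mRNAs) were counted deeply enough in Surface-seq libraries of EL4 cells to be described here. They were selected from 55385 listed genes as the protein-coding genes whose symbol is Zfp followed by a digit (394 genes, of which 324 had at least 1 count) and whose read counts summed to 500 or more over the 5 libraries. EL4 is an established mouse T lymphoma line grown in suspension. Its plasma membrane was purified and coated onto polymer particles to give membrane-coated nanoparticles (MCNPs), whose outer face corresponds to the outer face of the cell. All 5 libraries came from such particles. In variation A (3 libraries, A1, A2 and A3) RNA was extracted from the MCNPs with phenol-chloroform before library construction, so that RNA on either side of the membrane could enter. In variation B (2 libraries, B1 and B2) the 3′ ligation step took place on the MCNPs themselves, to select outward-facing RNA, and RNA was isolated afterwards. The comparison of B with A therefore sets outward-facing RNA beside all membrane-associated RNA. The variations also differ in the ligation step, in other preparation steps and in depth, and these cannot be told apart. The study's methods describe end repair before ligation for the extracted RNA. For ligation on the MCNPs they describe no end repair, but bead isolation, more input RNA and more amplification cycles.

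A zinc finger is a short protein fold held together by a zinc ion. In the C2H2 type a pair of cysteines and a pair of histidines hold the ion, and such fingers stand in rows joined by a conserved linker, each row reading a stretch of DNA. Many of these genes also encode a KRAB box, which recruits the co-repressor Trim28 and is known for silencing retroelements and imprinted loci, and they lie in clusters of gene copies. Fingers of the CCCH type, as in Zfp36l1 and Zfp36l2, bind AU-rich elements of mRNAs and bring in the CCR4-NOT deadenylase, and other members bind RNA, ribosomes or the mitotic spindle.

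The following coding stretches show what the members share and where they differ. They are the first C2H2 finger that the linker follows in 4 members whose level was higher in variation B, read 5′ to 3′ on the coding strand of the GENCODE M21 transcripts of GRCm38, with the codons of the zinc-binding cysteines and histidines in capitals.
Zfp51: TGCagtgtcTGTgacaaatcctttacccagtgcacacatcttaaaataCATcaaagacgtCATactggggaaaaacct
Zfp40: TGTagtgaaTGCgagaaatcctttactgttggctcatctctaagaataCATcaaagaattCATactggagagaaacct
Zfp68: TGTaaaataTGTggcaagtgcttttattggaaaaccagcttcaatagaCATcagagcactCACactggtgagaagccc
Zfp266: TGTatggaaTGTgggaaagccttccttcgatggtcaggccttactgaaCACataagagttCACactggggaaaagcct
The stretches lie at chr17:21463854-21463931 (plus strand) for Zfp51, chr17:23176274-23176351 (minus strand) for Zfp40, chr5:138607028-138607105 (minus strand) for Zfp68 and chr9:20499602-20499679 (minus strand) for Zfp266, each within 1 coding exon. Over 78 bases, Zfp51 and Zfp40 were identical at 59 positions (75.6%), and the other pairs shared between 56.4% and 62.8% of positions. Longer identical stretches matter for counting, since the deposited counts left out reads with several alignments. A median of 1.82% of a member's 30-base words was also found in transcripts of another gene, and 13 members were over 20%, led by Zfp955a with 67.4%. These words were searched on both strands and include plain exon overlap, so they do not measure finger repeats alone.

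The member with the largest fall is shown for contrast by its first C2H2 finger, which is not followed by that linker, at chr2:181589864-181589929 on the minus strand.
Zfp512b: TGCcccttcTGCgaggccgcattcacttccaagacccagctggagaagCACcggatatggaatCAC
The CCCH fingers of the mRNA decay pair are shown because they are the members that bind mRNA through this fold, with capitals on the codons of their 3 cysteines and 1 histidine, at chr12:80110189-80110248 and chr17:84186668-84186727, both on the minus strand.
Zfp36l1: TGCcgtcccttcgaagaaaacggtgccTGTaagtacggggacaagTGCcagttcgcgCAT
Zfp36l2: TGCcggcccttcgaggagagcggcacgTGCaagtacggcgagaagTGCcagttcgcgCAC
These 2 stretches were identical at 49 of 60 bases (81.7%). Translated coding sequences of GENCODE M21 held a C2H2 pattern in 138 of the 143 members, with a median of 9 fingers over all members and at most 36, in Zfp142. A KRAB box pattern was found in 54 members, with a median of 12 fingers, against 7 in the members without one. The absence of a pattern says only that these residues were not found in the longest coding sequence.

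The depth behind these values was uneven. The libraries held 1187117 to 4502174 counts in variation A and 21862003 to 22980172 in variation B, so 3 counts stood for a CPM (counts scaled to a common library total) of 0.666 to 2.53 in variation A and 0.131 to 0.137 in variation B. The sum used to select the members came to 94.0% from variation B, which favours genes that are high there, and calls in either direction are therefore descriptions. Counts were present in every library for 125 members, and 47 had at least 10 in each library, while 17 members were at 0 in A3. Zfp668 (509 counts) and Zfp472 (521) were just inside the minimum, with log2 fold changes of -0.90 and 1.02. Zfp956 (489) and Zfp74 (479) were just outside it, with 0.33 and 1.41. Levels below are CPM scaled by the trimmed mean of M-values (TMM-CPM), and a difference was called where the edgeR quasi-likelihood test gave an adjusted p below 0.05 and the levels differed by more than 2-fold. Over the members, log2 TMM-CPM correlated across genes at a Pearson r of 0.91 between A2 and A3 and of 0.92 between B1 and B2, but A1 stood as near to B1 (0.76) as to A2 (0.76). Of 12 T lymphocyte markers, 11 were counted in every library, with a summed level of 758 to 866 in variation A and 1201 to 1222 in variation B. Marker sums reached at most 1.94 for B lymphocytes, 4.67 for myeloid cells and 0.146 for erythroid cells.

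In edgeR, 21 of the 143 members (14.7%) rose in variation B and 4 (2.80%) fell. The background was 11.0% higher and 12.4% lower over all genes tested, and 12.9% higher and 10.1% lower over the protein-coding genes with the same minimum. In this fit the share of members that rose was near that of the protein-coding genes and the share that fell was under it, but both readings changed with the setting. The median log2 fold change of B over A was 0.73, beside 0.05 over the 10287 genes tested and 0.20 over the 7266 protein-coding genes with the same summed count. It was above 0 in 112 of 143 members, called or not, beside 4192 of 7266 protein-coding genes, and the selection on counts that came mostly from variation B favours this sign. Both B libraries lay above all A libraries for 77 members (53.8%), against 36.0% of the protein-coding genes, and below them for 17 members, against 23.5%. Without A1, 59 members (41.3%) were higher and 10 (6.99%) lower, beside 30.3% and 14.1% of the protein-coding genes. The counts were 7 and 1 without A2 (4.90% and 0.699%, beside 4.43% and 2.88%) and 8 and 1 without A3 (5.59% and 0.699%, beside 4.51% and 3.07%). Without B1 or without B2 variation B held only 1 library, and nearly all calls were lost. The members' median log2 fold change was then 0.71 without B1 and 0.63 without B2, beside 0.18 in each for the protein-coding genes. With library totals alone the median of all genes moved to 1.50, that of the members to 2.17, and 117 members (81.8%) were called higher and 1 (0.699%) lower, beside 65.4% and 0.716% of the protein-coding genes.

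**Figure D1:**
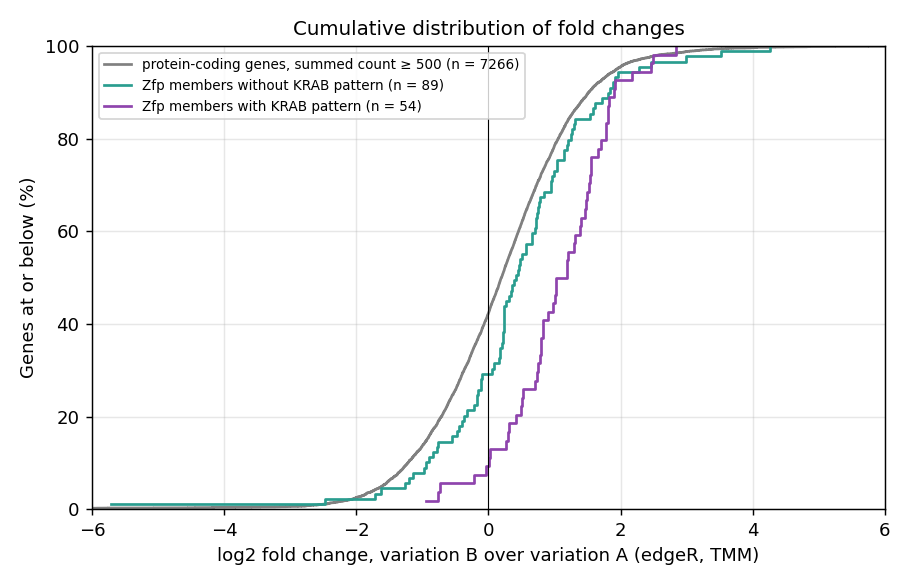
The x axis gives the log2 fold change of variation B over variation A and the y axis the percent of genes at or below it, for 54 members with a KRAB pattern, 89 members without one and 7266 protein-coding genes with the same summed count, 20 of which lie beyond the axis. The curve of the KRAB members lies to the right over most of its range (median 1.11), and that of the other members (median 0.42) lies nearer to the curve of the protein-coding genes (median 0.20).

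Among the members with C2H2 fingers and high levels in variation B, Zfp68 and Zfp266 encode KRAB zinc finger proteins and had the largest rises of those with at least 10 counts over variation A. Zfp68 (ENSMUSG00000058291.14, chr5:138603652-138619761) was counted 26, 10 and 5 times in the A libraries and 1690 and 2073 times in the B libraries, in numerical order here as throughout. Its level was 12.9, 3.89 and 7.41 TMM-CPM in variation A and 41.2 and 49.1 in variation B. Both B libraries were above all A libraries, and the log2 fold change was 2.49 ± 0.46 (approximate SE, n = 3 and 2; edgeR adjusted p = 0.00937). Zfp266 (ENSMUSG00000060510.14, chr9:20495068-20521417) was at 17.9, 5.06 and 7.41 TMM-CPM in variation A and at 64.4 and 49.6 in variation B, from 36, 13, 5, 2638 and 2094 counts. The groups did not overlap, and its log2 fold change was 2.46 ± 0.48 (edgeR adjusted p = 0.0113). Zfp68 shares exon sequence with other genes on the other strand, which the counting did not separate, and Zfp266 overlaps none.

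Zfp292, a large nuclear protein with 14 finger patterns, was at 24.3, 7.39 and 5.92 TMM-CPM in variation A and at 62.9 and 66.8 in variation B. The groups did not overlap, A1 lay nearest to variation B, and the log2 fold change was 2.29 ± 0.51 (edgeR adjusted p = 0.0168). Zfp26, a KRAB member with 22 finger patterns, was at 22.8, 16.7 and 5.92 TMM-CPM against 53.8 and 67.3, a log2 fold change of 1.89 ± 0.42 (edgeR adjusted p = 0.0169). Zfp46, also with a KRAB pattern, was at 4.96, 9.34 and 4.44 TMM-CPM against 24.5 and 25.8, and A2 rather than A1 was its highest A library. Its log2 fold change was 1.91 ± 0.39 (edgeR adjusted p = 0.0124). Zfp160, Zfp639 and Zfp35 were the thinnest of the named rises, each at 0 counts in A3 and with 10, 18 and 19 counts over variation A as a whole, and their edgeR adjusted p lay between 0.0446 and 0.0478. Zfp68, Zfp266 and Zfp46 were called in 16 of 18 alternative settings and lost the call without B1 and without B2, whereas Zfp160 was called in 6 of 17, Zfp639 in 7 of 17 and Zfp35 in 8 of 18. Zfp292 lost the call without A2, A3, B1 or B2 (14 of 18 settings called), and Zfp26 without A2, B1 or B2 and with the GC trend removed (0.95, and 0.82 with the replicate block) or the length trend removed with the replicate block (1.14; 12 of 18 called).

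The members with the highest fitted rises rested on fewer counts and are named here after their values were seen. Zfp51 (ENSMUSG00000023892.8, chr17:21450374-21465587) had 1, 4 and 0 counts in variation A and 674 and 817 in variation B, at 0.496, 1.56, 0, 16.4 and 19.3 TMM-CPM. Its log2 fold change was 4.27 ± 0.60 (edgeR adjusted p = 0.00354), and it was the member still called higher without B1 or without B2. Zfp40 had 5, 1 and 0 counts against 415 and 675, Zfp296 had 0, 5 and 2 against 418 and 481, and Zfp790 had 4, 2 and 0 against 278 and 393. For these 3 members every B library was above every A library, and their log2 fold changes ran from 2.83 to 3.51 (edgeR adjusted p from 0.0135 to 0.0259). None of these 3 was called without B1 or without B2, and Zfp296 and Zfp790 were also not called without A2 or without A3. Zfp296, which overlaps Gemin7 on the other strand over 12.9% of its length, has a GC content of 59.5%, while Zfp51 and Zfp40 are at 38.5% and 37.7%. Of the 21 members that rose, 16 had at least 10 counts over variation A and 3 had at least 10 in each A library.

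Further members that rose have better described roles. Zfp131, a transcription factor with a BTB domain, was at 20.3, 6.61 and 4.44 TMM-CPM in variation A and 43.7 and 39.2 in variation B (edgeR log2 fold change 1.88 ± 0.51, adjusted p = 0.0313). Zfp451, a SUMO ligase, was at 38.7, 26.1 and 26.7 against 63.4 and 76.4 (1.19 ± 0.30, adjusted p = 0.0266). Zfp609, a partner of the cohesin loader Nipbl, was at 9.42, 15.6 and 16.3 against 38.5 and 43.6 (1.61 ± 0.34, adjusted p = 0.0139). In Zfp131 and Zfp451 the highest A library was A1, in Zfp609 the lowest was A1, and in none of the 3 did the groups overlap. None of the 3 was called without B1 or without B2, and Zfp131 and Zfp451 were also not called without A2 or without A3. Zfp260, Zfp146, Zfp62, Zfp869 and Zfp871 completed the list of rises, with Zfp445 described below.

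**Figure D2:**
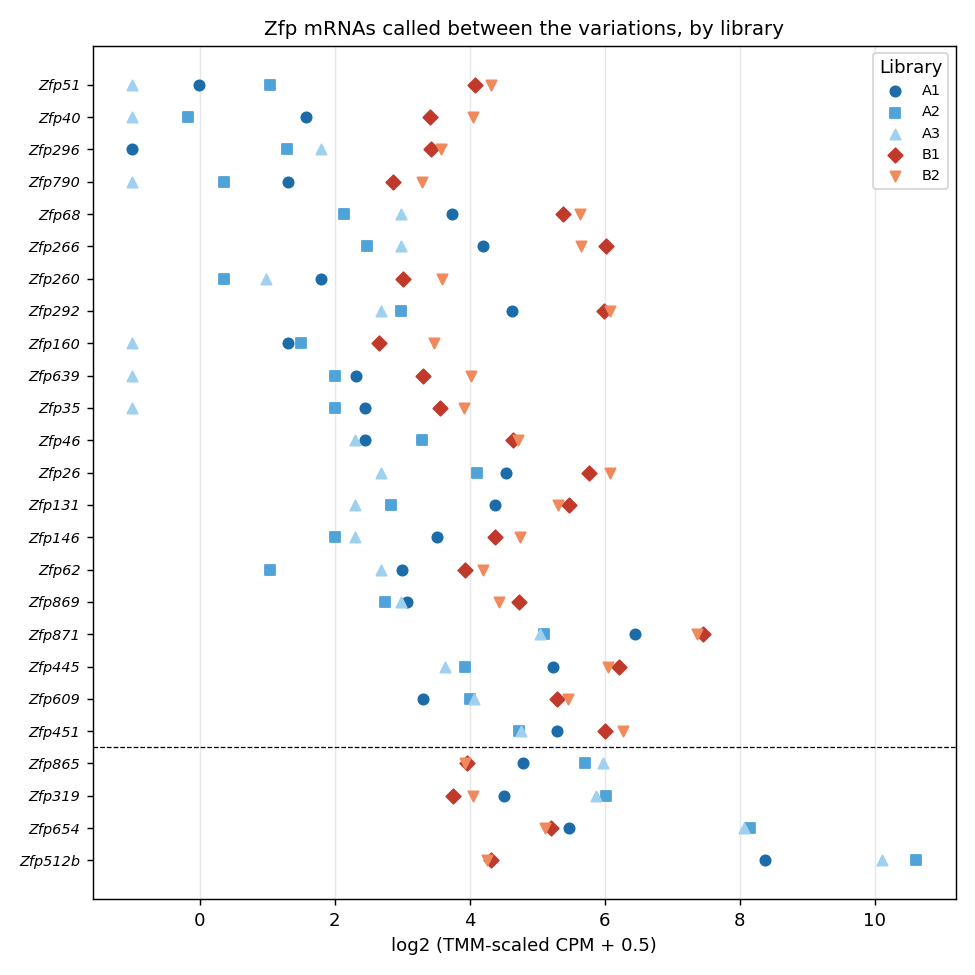
Each point is 1 library's level of a called member, as log2 of TMM-CPM plus 0.5 on the x axis, with the 21 members that rose above the dashed line and the 4 that fell below it, ordered by fitted fold change. The B libraries lie to the right of every A library above the line and to the left of every A library below it, and points at the left edge have 0 counts.

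The 4 members that fell included the most abundant Zfp mRNA of variation A. Zfp512b (ENSMUSG00000000823.16, chr2:181582103-181592803), a C2H2 protein without a KRAB pattern, was counted 666, 4034 and 743 times in the A libraries and 793 and 787 times in the B libraries, although the B libraries were sequenced more deeply. Its level was 330, 1569 and 1101 TMM-CPM in variation A and 19.4 and 18.6 in variation B. The groups were far apart, with A2 highest and A1 lowest within variation A, and the level was 52.6-fold lower in variation B (edgeR log2 fold change -5.72 ± 0.75, adjusted p = 0.00279). It was called in all 18 alternative settings, library totals included, with log2 fold changes from -6.02 to -4.09. Zfp512b shares 4.85% of its exon length with Uckl1 on the same strand and Uckl1os on the other. Uckl1 had 13, 12 and 1 counts in variation A and 413 and 703 in variation B (edgeR log2 fold change 1.50, adjusted p = 0.0592), and Uckl1os had at most 37 counts in a library. The tables give no position of reads within the gene.

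Zfp654, a C2H2 member of chromosome 16 with no annotated exon overlap, had 88, 728 and 180 counts in variation A and 1493 and 1447 in variation B. At 43.6, 283 and 267 TMM-CPM against 36.4 and 34.2, it was high in A2 and A3, while A1 was close to the B libraries. The log2 fold change was -2.48 ± 0.71 (edgeR adjusted p = 0.0368). Zfp319 was at 22.3, 64.6 and 57.8 TMM-CPM against 13.03 and 15.98 (edgeR log2 fold change -1.72 ± 0.46, adjusted p = 0.031). Zfp865 was at 27.3, 51.7 and 62.2 against 15.1 and 14.8 (-1.63 ± 0.39, adjusted p = 0.0214), and 28.4% of its length overlaps other genes. In both, A1 was again the A library nearest to variation B, and the groups did not overlap. Zfp654, Zfp319 and Zfp865 were not called with library totals alone or without any 1 of A2, A3, B1 and B2, and Zfp512b was then the 1 member called lower. Zfp865 was also not called with the replicate block (-1.34), with the GC trend removed (-0.84) or with both (-0.69), nor Zfp319 with both (-0.90).

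Per kilobase of exon, Zfp512b also led the members in level. Its mean over the 5 libraries was 55.3 CPM per kb (library totals), against a member median of 2.78. Zfp106, an RNA-binding protein, followed at 18.9 CPM per kb, and Zfp706, Zfp740, Zfp654, Zfp36l2, Zfp871 and Zfp622 lay between 9.09 and 15.99. These means combine unlike variations: Zfp512b was at 48.5, 230 and 162 TMM-CPM per kb in variation A but at 2.84 and 2.74 in variation B, where Zfp106 was at 19.4 and 18.6. Zfp106, Zfp871 and Zfp91 had the highest summed counts. Zfp871, a KRAB member, rose from 86.8, 33.8 and 32.6 TMM-CPM to 175 and 164 (edgeR log2 fold change 1.71 ± 0.44, adjusted p = 0.0262). Its call held in 11 of 18 settings and was lost with the GC trend removed (0.82, also with the replicate block), with the length trend removed and the replicate block (1.27) and without A2, A3, B1 or B2 (1.52 to 1.75), and the value was 2.46 without A1. Zfp91, a ubiquitin ligase, was at 44.1, 44.0 and 38.5 against 77.0 and 89.2, with an edgeR adjusted p of 0.034 and a log2 fold change of 0.97 that stayed under the 2-fold minimum, and it was called in 5 of 18 settings. Zfp706 and Zfp740 were not called with TMM scaling, and their groups did not overlap in either case, with the B libraries higher. Both were called higher with library totals alone (2.17 and 1.96), and Zfp706 was at -0.054 with the GC trend removed.

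The share of a library taken by the 143 members depended on what it was measured against. The members took 0.229%, 0.222% and 0.187% of all counts in the A libraries and 0.596% and 0.614% in the B libraries. The means were 0.212% ± 0.022 (SD, n = 3) and 0.605% ± 0.013 (SD, n = 2), given as a description because the members were selected on the same counts. As a share of counts on nuclear protein-coding genes, the values were 0.582%, 0.982%, 0.851%, 0.939% and 0.954%, and the groups overlapped. Zfp512b alone made up 12.7%, 40.4% and 33.5% of the members' counts in variation A and 0.609% and 0.558% in variation B. The other members took 0.508%, 0.586% and 0.566% of nuclear protein-coding counts in variation A and 0.933% and 0.948% in variation B. Zfp512b was set apart after its values were seen, which by itself lowers variation A, so the gap between these values supports nothing.

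**Figure D3:**
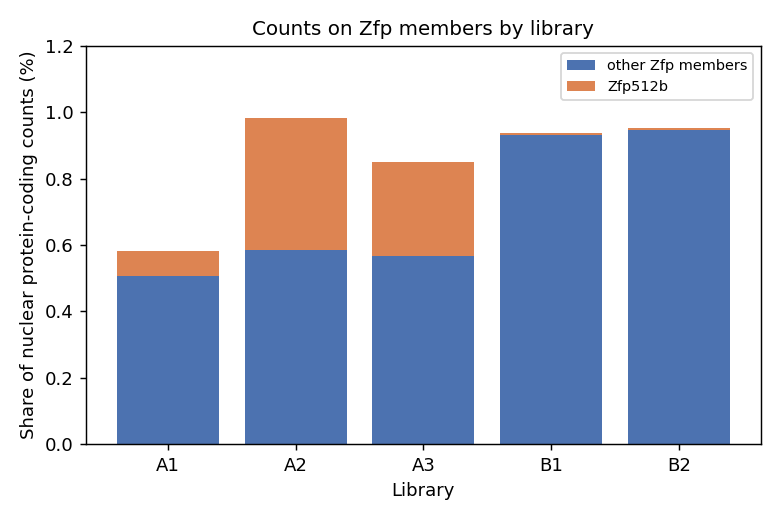
Each bar is 1 library, and its height is the percent of counts on nuclear protein-coding genes that fell on the 143 members, with Zfp512b stacked above the other members. The part from the other members is 0.508% to 0.586% in variation A and 0.933% to 0.948% in variation B, and Zfp512b is hardly visible in variation B.

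By protein type, the share of members that rose was about equal, at 14.8% of the KRAB members and 15.5% of the other C2H2 members, both near the 12.9% of protein-coding genes, while the medians differed. The 54 members with a KRAB pattern had a median log2 fold change of 1.11, and 49 of them were above 0. In edgeR 8 of them rose (Zfp790, Zfp68, Zfp266, Zfp160, Zfp46, Zfp26, Zfp871 and Zfp445) and 0 fell, where 10.1% of the protein-coding genes fell. Without A1, 28 rose and 1 fell, and 3 rose without A2 and 4 without A3, for which the shares of the protein-coding genes are given above. Without B1 or without B2 these calls were lost, and the median of the KRAB members was 1.25 and 1.00. The 84 C2H2 members without the pattern had a median of 0.46, with 13 that rose and all 4 that fell. The 5 members with neither pattern were Zfp365, Zfp36l1, Zfp36l2, Zfp703 and Zfp839, with a median of -0.22 and no call. The difference between the KRAB members and the rest was not tested, and the KRAB members are also poorer in GC, with a median of 42.9% against 47.6% for the other C2H2 members.

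GC content moved with the fold change in the members as in other genes. Over the 143 members the Spearman correlation of GC content of the longest transcript with log2 fold change was -0.53, and over the 7266 protein-coding genes it was also -0.53, a description across genes that share the same libraries. Of the members under 42% GC, 12 of 48 rose (25%, beside 20.9% of the protein-coding genes in that range) and Zfp654 fell (2.08% beside 1.25%), with a median log2 fold change of 1.16 beside 0.94. At 52% GC or more, 2 of 32 members rose (Zfp296 and Zfp609) and 3 fell (Zfp512b, Zfp319 and Zfp865), or 6.25% higher beside 4.88% and 9.38% lower beside 22.6%, with a median of -0.19 beside -0.53. The median of the members lay above that of the protein-coding genes in each of the 4 ranges. The others were 0.99 beside 0.62 from 42% to 47% and 0.50 beside 0.21 from 47% to 52%. In these middle ranges 4 of 32 members rose (12.5% beside 19.9%) and 3 of 31 (9.68% beside 12.2%). With so few genes these shares are not read as differing from the background. The shares that fell were 0% beside 2.18% and 0% beside 6.29%. With the GC trend of each library removed, an alternative chosen after the data were seen, the median was 0.39 for the members and 0.07 for the protein-coding genes, and the KRAB members were at 0.54 against 0.29 for the rest, which became 0.43 against 0.30 with the replicate block added. Exon length had a Spearman correlation of -0.0095 with the members' log2 fold change.

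**Figure D4:**
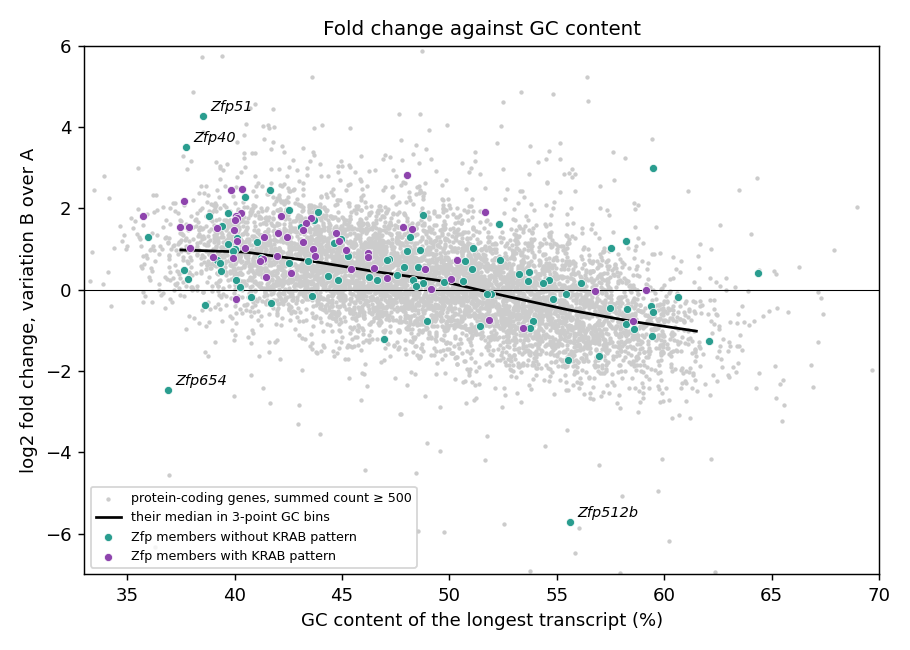
Each point is a gene, with the GC content of its longest transcript in percent on the x axis and the log2 fold change of variation B over A on the y axis. The members with and without a KRAB pattern are coloured, protein-coding genes with the same summed count are grey (15 lie beyond the axes), and the line joins their medians in bins of 3 points of GC. Fold changes fall with GC in both, and Zfp512b and Zfp654 lie far under the line.

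The members lie on 20 chromosomes, with 32 on chromosome 7 and 15 on chromosome 17. Taking runs of at least 4 members with gaps of at most 500 kb, 31 members fell into 6 clusters. On chromosome 9, Zfp26, Zfp426, Zfp266 and Zfp846 (chr9:20428449-20605409) all had a KRAB pattern and log2 fold changes of 1.78 to 2.46, of which Zfp26 and Zfp266 were called. The cluster of 8 at chr7:29768552-30169750, which holds Zfp568, Zfp790, Zfp260 and Zfp146, had all members above 0 (median 1.25) and 3 called higher, in the same fit that called 12.9% of protein-coding genes higher. The cluster of 6 around Zfp871 at chr17:32765496-33394641 also had all above 0, with a median of 1.24 and 1 called higher. The 4 at chr7:27731389-28014115 had a median of 1.25 and the 4 at chr7:127233061-127885996 a median of 0.42, with 0 called in each. The 5 members at chr6:47835661-48086593, with a median GC of 55.4%, had a median of 0.17 and no call. Over all clustered members the median was 1.02, beside 0.70 for the 112 others, and this difference was not tested. Clustered copies may resemble each other in sequence, so these members may not be independent of one another, which was not tested.

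Among the KRAB members with known targets, Zfp445, which keeps methylation at imprinted loci, rose. It was at 37.2, 14.8 and 11.8 TMM-CPM in variation A and 73.5 and 65.5 in variation B (edgeR log2 fold change 1.65 ± 0.44, adjusted p = 0.0312), with A1 nearest to variation B and no overlap, and the call was lost without A2, A3, B1 or B2 and with the GC trend removed and the replicate block (0.96). Zfp809, which silences murine leukaemia virus, was at 5.95, 3.89 and 2.96 against 7.69 and 10.0 (0.98 ± 0.46, edgeR adjusted p = 0.148), and was called without A1 (1.40) and with library totals alone (2.41). Zfp568, a repressor of a placental Igf2 transcript, was at 24.8, 20.2 and 19.3 against 19.4 and 33.6, so that the groups overlapped (edgeR adjusted p = 0.556). It was called higher with library totals alone (1.73), but was at -0.065 with the GC trend removed. Zfp57, the other imprint regulator of the list, and Zfp708 were at 0 counts in every library, and Zfp932 had too few counts for the test. Of the 20 genes of the co-repressor complex that KRAB boxes recruit, Cbx5 was called higher and Rbbp4 and Gatad2a lower (5% and 10%, beside 11.0% and 12.4% of all genes tested), with a median log2 fold change of 0.31. Trim28, the direct partner of the KRAB box, was at 369, 388 and 397 TMM-CPM against 294 and 367 (edgeR adjusted p = 0.614).

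The mRNA decay members had log2 fold changes under 0 with TMM scaling and were not called there. Zfp36l1 was at 15.4, 19.1 and 17.8 TMM-CPM in variation A and 8.00 and 12.5 in variation B (edgeR log2 fold change -0.76 ± 0.36, adjusted p = 0.146). Zfp36l2 was at 51.6, 45.1 and 56.3 against 45.0 and 42.1 (-0.22 ± 0.27, edgeR adjusted p = 0.578). In both, the B libraries were below all A libraries, but with library totals alone both values were above 0 (0.72 and 1.24) and Zfp36l2 was called higher. Zfp36l2 was also above 0 with the GC trend removed (0.25) and with the replicate block added to that (0.30). Of Zfp36l1, 61.9% of the 30-base words were shared with other transcripts, so its counts are uncertain. Zfp36, the best known gene of this family but under the minimum with 213 counts, had a log2 fold change of -2.04 ± 0.68 (edgeR adjusted p = 0.0594), and Zfp36l3 was at 0. The list thus had 0 calls among 3 genes tested, with 1 at an unadjusted p under 0.05, a level that 4116 of the 10287 genes tested reached. Of 10 genes of the CCR4-NOT deadenylase, 1 was called, Cnot2, at 18.3, 10.9 and 13.3 TMM-CPM against 43.0 and 41.97 (edgeR log2 fold change 1.58 ± 0.33, adjusted p = 0.0135), a share of 10% beside 11.0% of all genes tested.

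Of the 9 genes listed for RNA binding, the ribosome and the spindle, 8 were tested and 0 passed the edgeR threshold, with 3 at an unadjusted p under 0.05, beside 4116 of all 10287 genes tested. This count depended on the setting, and the values are given for each listed gene that is a member. Zfp638, a nuclear protein that silences unintegrated retroviral DNA, was at 61.0, 17.1 and 16.3 TMM-CPM against 74.3 and 81.8 (edgeR log2 fold change 1.26 ± 0.53, adjusted p = 0.109). A1 lay nearest to the B libraries, A2 and A3 were far below them, and without A1 Zfp638 was called at 2.32 (edgeR adjusted p = 8.2e-06), as it was with library totals alone (2.57). Zfp598, the ubiquitin ligase of collided ribosomes, was at 24.3, 53.7 and 51.8 against 19.03 and 19.6 (-1.15 ± 0.39, edgeR adjusted p = 0.063), again with A1 nearest to variation B. It was called lower without A1 (-1.34), with upper-quartile factors (-1.28) and with all libraries thinned to the smallest total (-1.26), but its log2 fold change was -0.097 with the GC trend removed. Zfp106 was at 156, 105 and 93.3 against 202 and 194, and Zfp346, which binds double-stranded RNA, at 9.92, 23.7 and 17.8 against 30.7 and 26.2. In both, the B libraries were above all A libraries, but the edgeR adjusted p was 0.116 and 0.199. Both were called with library totals alone (2.15 and 2.27), Zfp106 also without A1 (1.11) and Zfp346 with the GC trend removed and the replicate block (1.03). Zfp622, a factor of large ribosomal subunit maturation, was at 46.6, 68.8 and 69.6 against 51.2 and 58.9 (edgeR log2 fold change -0.16, adjusted p = 0.721). Zfp207, a spindle protein that binds Bub3, was at 42.7, 19.4 and 20.7 against 26.3 and 18.7 (-0.32, edgeR adjusted p = 0.581). In both, the groups overlapped. Zfp326, of the complex that couples splicing to elongation, was at 20.3, 18.7 and 22.2 against 15.3 and 16.1 (edgeR adjusted p = 0.397). With the GC trend removed, Zfp207 (-1.10) and Zfp326 (-1.51) were called lower, and likewise with the replicate block added (-1.09 and -1.23). With library totals alone, Zfp326 (1.09) and Zfp622 (1.36) were instead called higher.

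Of 23 listed DNA-binding regulators without a KRAB box, 21 were tested, and 2 rose (Zfp292 and Zfp131) and 1 fell (9.52% and 4.76%, beside 11.0% and 12.4% of all genes tested), with a median log2 fold change of 0.31. The fall was in Zfp687, which had 377 counts in all and was thus under the minimum (edgeR log2 fold change -2.67 ± 0.47, adjusted p = 0.00827). Among the members of this list, Zfp462 was at 21.3, 23.7 and 25.2 TMM-CPM against 52.5 and 37.2 (edgeR adjusted p = 0.0519), and Zfp281, a regulator of pluripotency, at 17.9, 4.28 and 5.92 against 25.3 and 31.2 (edgeR adjusted p = 0.0671). Zfp335, which T lymphocyte maturation requires, was at 12.9, 15.9 and 17.8 against 11.5 and 11.7 (edgeR adjusted p = 0.392). Other zinc finger families with the same minimum gave medians of 0.45 for 25 Zbtb genes (4 higher, 1 lower), 1.03 for 8 Zc3h genes (4 higher, 0 lower) and -0.0094 for 9 Klf and Sp genes (1 higher, 0 lower). The shares higher were 16%, 50% and 11.1%, beside 12.9% of the protein-coding genes with the same minimum, and the shares lower 4%, 0% and 0%, beside 10.1%, and no difference between the families and the Zfp members was tested.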

How the data were processed

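Per the labels and the study's methods, the authors used Trimmomatic 0.36 for trimming, STAR 2.7.3a for alignment to GRCm38 and featureCounts 1.6.4 for counting over GENCODE M24 exons. The deposited values are raw counts per gene and library, without normalization. Strand was not used in counting, and reads with several alignments or over more than 1 gene were left out. Symbols and types were matched to GENCODE M21 for 55144 of 55385 genes. Coding sequences of M21 were translated and searched for C2H2, CCCH and KRAB box patterns.

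Counts of all libraries were fitted by the quasi-likelihood functions of edgeR 4.0.16 (R 4.3.3) after filterByExpr and TMM scaling, with Benjamini-Hochberg adjustment over 10287 genes. The approximate SE is the size of the log2 fold change divided by the square root of F. The exact permutation test planned for the shares is not used, since the members were selected on the same counts. The members and lists were chosen with earlier results of these data known. In simulated data on 10287 genes for this comparison, 57.0% of 4-fold and 89.0% of 16-fold changes were called, and 4.58% of calls were unchanged genes. The simulation changed 200 genes, up and down alike, and drew every library independently. In the data 1135 genes were called higher and 1276 lower, and A1 stood apart from A2 and A3. The simulated shares are therefore not error rates of the calls given here. Where nothing says that replicates are separate cultures, p-values measure the spread between these libraries, which may be technical. Reads carry no molecular identifiers, so floors of 3 counts cover counting error only. Libraries were grouped by their names, and no pair agreed within sampling noise. Same-numbered libraries are not stated to be paired.

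Named genes are the 8 members with the highest CPM per kb, the 3 with the highest summed count, the 8 largest rises with at least 10 counts over variation A and the largest falls with at least 10 over variation B (up to 8), both without overlap, members of the fixed lists of mRNA decay, RNA binding and KRAB genes, the genes nearest the minimum, and members at 0 throughout a variation (0 members). Others are named for calls, lists or sequences, after their values were seen. Alternatives covered scaling, filters, DESeq2 1.42.0, the replicate block, length and GC trends, depth, thresholds, the member minimum and each library left out.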

Additional observations from a re-analysis of the deposited data

How the results depend on the processing

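The fall of Zfp512b and the rise of Zfp51 were the calls kept in every fit that left out 1 library, and no other member's call was. Leaving out 1 library gave 1 to 59 members higher and 1 to 10 lower (59 and 10 without A1, 7 and 1 without A2, 8 and 1 without A3, 1 and 1 without B1 or B2). With library totals alone, 117 rose and 1 fell, with a median log2 fold change of 2.17. The median was 0.39 with the GC trend removed and 0.36 with the GC trend removed and the replicate block. A test against a 2-fold change called 4 higher and 1 lower (2.80% and 0.699%, beside 2.66% and 1.67% of protein-coding genes). With a summed count of 200 or more, 24 of 201 genes rose and 8 fell, and with 1000 or more, 17 of 82 rose and 4 fell. No background share was taken at these minima, so these counts are not compared with other genes. Over every Zfp gene tested, 24 of 220 rose and 11 fell (10.9% and 5%, beside 11.0% and 12.4% of all genes tested). With the replicate block, 19 rose and 3 fell (13.3% and 2.10%, beside 8.34% and 5.09% of protein-coding genes; median 0.66), and DESeq2 called 22 and 4 (15.4% and 2.80%, beside 13.5% and 9.63%). With the length trend removed and the block, 12.6% rose, beside 7.46%. The share that rose was also above the background with library totals alone (81.8% beside 65.4%) and without A1 (41.3% beside 30.3%). In some other settings it was about the background. With the GC trend removed it was 11.89% beside 11.92%, and with the block as well 11.9% beside 11.5%. With a stricter filter on low counts it was 12.1% beside 12.5%. The same-numbered libraries had correlations of -0.10 and -0.034 in their deviations from the group means. With only B1 and B2 in variation B, their deviations mirror each other, so these values cannot show whether libraries were paired. Without a filter on low counts the median of all genes was 0.46 rather than 0.05, and with upper-quartile factors it was -0.078. DESeq2 was run on every gene with at least 1 count, not on the 10287 genes behind the 0.05. Its median of all genes was -0.91, while that of the members was 0.79. The cause of these differences was not tested.

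Log2 fold changes that changed sign, of members not called with TMM, were, with library totals, 1.24 for Zfp36l2, 1.36 for Zfp622, 0.72 for Zfp36l1, 1.05 for Zfp207, 1.09 for Zfp326, 0.40 for Zfp598 and 0.58 for Zfp668, of which Zfp36l2, Zfp622 and Zfp326 were then called higher (edgeR adjusted p = 0.0247, 0.0118 and 0.0342). With the GC trend removed they were -0.054 for Zfp706, 0.25 for Zfp36l2 and -0.065 for Zfp568, and with the block as well 0.30 for Zfp36l2 and -0.11 for Zfp568. Zfp622 was at 0.059 without a filter. Leaving out 1 library gave -0.27 to 0.019 for Zfp622 (above 0 without A2), -0.59 to 0.29 for Zfp207 (above 0 without A1) and -0.16 to 0.63 for Zfp568 (below 0 without B2). Of the other values of named genes, 450 kept their side of the threshold, 27 newly passed it and 78 no longer did. With all libraries thinned to the smallest total, 14 of 138 members rose and 5 fell (10.1% and 3.62%, beside 9.09% and 9.99%). At the depth of A3, 17 members had 0 counts.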
